A study of Mus musculus with 8 samples.

Results

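The Bcl2 family of apoptosis regulators and caspase 8 were measured in mouse small intestine after treatment with dexamethasone, DBZ or both. The genes listed were Bcl2l11, Bbc3, Bid, Bad, Bax, Bak1, Bcl2, Bcl2l1, Mcl1 and Casp8, 10 in all. Every probe set that the platform annotation gives to exactly 1 of these genes was taken, which gave 24 of the 22690 probe sets on the array and covered 9 of the 10 genes, among 12393 genes with such a probe set in the series. No probe set was taken for Bax, which was not analysed here. Of the 24 probe sets, 19 had a mean signal over the threshold of 39.14 and were tested. The other 5 were too low, and among them were the only probe sets of Bcl2 and Bbc3.

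The mice were 6-week-old C57/Black6 females, injected once a day into the peritoneum for 5 days. One group received the vehicle dimethyl sulfoxide (DMSO), one the synthetic glucocorticoid dexamethasone at 15 mg/kg, and one DBZ, an inhibitor of the protease gamma-secretase, at 10 micromol/kg. The combination group received both drugs at those doses. Total RNA came from whole, unprocessed small intestine whose segment the labels do not give, and the study is about gamma-secretase inhibitors and glucocorticoid resistance of T-cell leukaemia. In such bulk RNA, fewer cells of a type and less RNA per cell cannot be told apart.

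Cells commit to the mitochondrial route of apoptosis when Bax and Bak1 open pores in the outer mitochondrial membrane and release cytochrome c, which starts the caspase cascade. Bcl2, Bcl2l1 (Bcl-xL) and Mcl1 hold these pore formers in check, and the BH3-only proteins Bcl2l11 (Bim), Bbc3 (Puma), Bid and Bad release them or activate them directly. Casp8 starts the other route, from death receptors at the cell surface, and joins the mitochondrial one by cutting Bid. Bim is a well known mediator of glucocorticoid-induced death in lymphocytes, and gamma-secretase inhibitors are known in the gut for turning crypt progenitors into goblet cells.

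The labels give 2 mice per group, but the DBZ columns held the same value in 22684 probe sets and another in 6, which makes DBZ 1 array and left 7 distinct arrays. The vehicle arrays stood apart. Their trimmed mean signal as deposited was 497, against 248 to 249 in treated mice, and each array was scaled to 250. Spearman correlations between vehicle and treated arrays were 0.925 to 0.94, against 0.94 to 0.959 between arrays of different treated groups. The enterocyte markers, of which 8 of 10 were measured, summed to 31300 to 43000 on all arrays, as the tissue label requires. The transcript of the ileal bile acid carrier Fabp6 had a signal of 0.644 and 1.22 on the vehicle arrays and 1120 to 12000 on the treated arrays. The 3' to 5' signal ratio of Gapdh was 1.8 on the DBZ array and 0.905 to 1.22 on the others, and that of Actb was 2.17 on the DBZ array and 1.22 to 1.79 on the others. The scale and marker levels of the vehicle arrays cannot be told apart from treatment wherever vehicle is a group of the comparison. All p-values measure the spread between these arrays.

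Against vehicle, changes were seen in 4 of the genes. With DBZ, 5 of the 19 tested probe sets passed the threshold of a Benjamini-Hochberg adjusted p of 0.05 in limma, against 8.34% of all 13637 tested. Of these, 4 rose (1 of Bcl2l11, 2 of Mcl1 and that of Casp8) and 1 of Bak1 fell. With dexamethasone 4 of 19 passed, against 12.0% of all, and with the combination 4 of 19 passed, against 7.50% of all. In both, 1 probe set of Bcl2l11 and that of Casp8 rose while both probe sets of Bak1 fell. The Bak1 probe set 1425716_s_at, the one that fell with DBZ, passed the filter on low signals only through the vehicle arrays. It had to be lower in the treated groups, so its calls support nothing. Leaving it aside, 4 of 18 passed with DBZ, 3 of 18 with dexamethasone and 3 of 18 with the combination. The median log2 change of the 19 was 0.06 for DBZ, -0.14 for dexamethasone and 0.15 for the combination, beside -0.05, 0.02 and -0.04 over all probe sets tested. These 3 comparisons share the vehicle arrays. Where leaving out 1 array lowered the counts below, calls over all tested probe sets also became fewer. Whether such losses are particular to these members was not tested. Without vehicle 1, Bak1 1425716_s_at was under the filter and 18 of these probe sets were tested. Leaving out combination 1 or combination 2 took the combination's 4 calls to 0. Leaving out dexamethasone 1 took the dexamethasone calls to 1, leaving out dexamethasone 2 took them to 2, and leaving out vehicle 1 took the counts to 2 in each of the 3 comparisons.

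**Figure D1:**
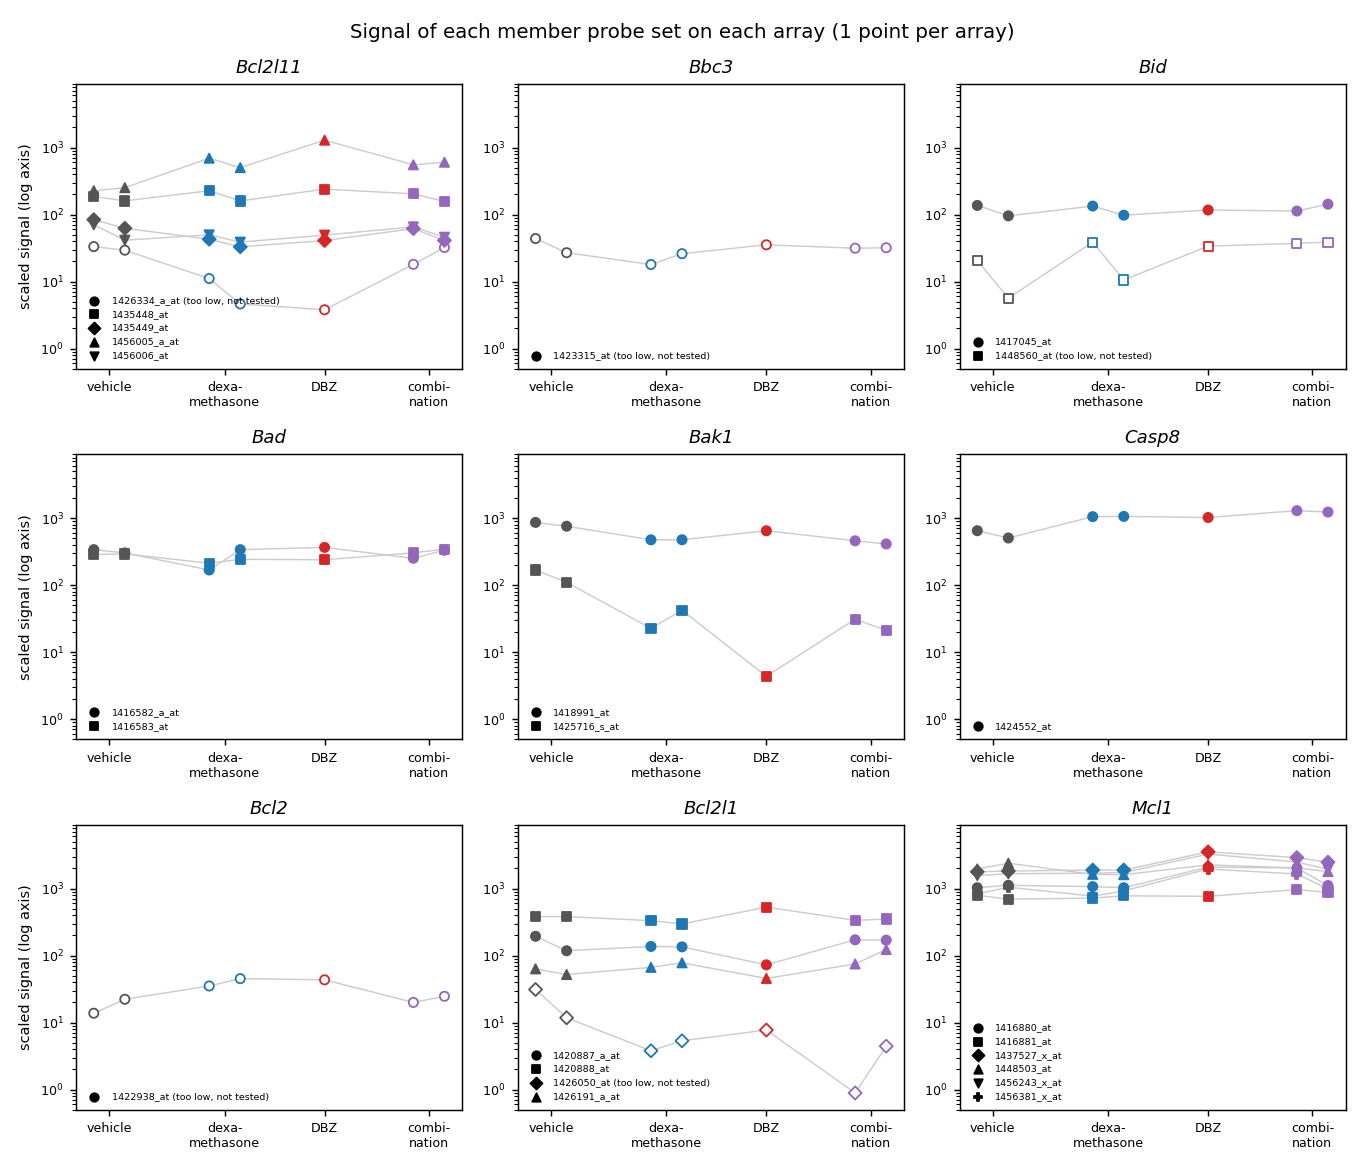
Scaled signal (log axis) of each of the 24 probe sets on the 7 arrays, 1 panel per gene, with colour for the group, marker shape for the probe set and a grey line joining the points of 1 probe set. Open points are the 5 probe sets too low to test. In the Bcl2l11 panel the probe set 1456005_a_at runs from 227 and 252 in vehicle to 1290 with DBZ, and the other 3 tested probe sets stay between 33 and 240.

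Among the BH3-only genes, Bcl2l11 had the largest change of any member that rose, on 1 of its 4 tested probe sets. Its probe set 1456005_a_at had signals of 227 and 252 in vehicle, 694 and 502 under dexamethasone, 1290 under DBZ, and 553 and 604 under the combination. Every treated array lay above both vehicle arrays, the DBZ array lay above all others, and the dexamethasone and combination arrays overlapped. On the log2(signal + 12.46) scale, on which all changes are given here and which understates those of low signals, it rose by 2.37 ± 0.24 (SE) with DBZ (5.17-fold, limma adjusted p = 0.00124). It rose by 1.26 ± 0.19 with dexamethasone (2.4-fold, adjusted p = 0.00407) and by 1.23 ± 0.19 with the combination (2.35-fold, adjusted p = 0.00702). Without rescaling, the dexamethasone and combination changes were 0.30 and 0.26 and did not pass, beside medians of -0.92 and -0.98 over all probe sets. The DBZ change was then 1.40 and passed. The combination's call was lost without combination 1 (1.29, adjusted p = 0.0591) or combination 2 (1.17, adjusted p = 0.0789).

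The levels of this Bcl2l11 probe set were therefore ordered DBZ, then dexamethasone (598 ± 136, SD, n = 2) and the combination (579 ± 36.4, n = 2), then vehicle (240 ± 17.1, n = 2). Combination and dexamethasone differed by -0.03 ± 0.19, with a 95% interval of -0.46 to 0.40. Adding DBZ to dexamethasone thus gave no measurable difference, while DBZ without dexamethasone gave 2.37. The interaction, which is the DBZ difference with dexamethasone minus the DBZ difference without it, was -2.40 ± 0.31 (limma adjusted p = 0.00501). Of the 19 probe sets, 2 passed for the interaction, against 4.01% of all tested. The other was Bak1 1425716_s_at, which passed the filter on low signals only through the vehicle arrays. Leaving it aside, 1 of 18 passed. The combination minus DBZ alone was -1.14 ± 0.24, which did not pass (limma adjusted p = 0.0942). The DBZ call and the interaction rest on the single DBZ array, whose spread was assumed to be that of the other groups. They also rest on the vehicle arrays. The DBZ array had the highest 3' to 5' signal ratios of Gapdh and Actb, whose part in these values was not tested. In any probe set, a difference between vehicle and all treated arrays alike also gives an interaction, of the opposite sign.

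The other tested Bcl2l11 probe sets did not follow. The probe set 1435448_at had signals of 187 and 160 in vehicle, 227 and 160 under dexamethasone, 240 under DBZ, and 204 and 157 under the combination. The DBZ array was the highest, and the dexamethasone and combination arrays overlapped those of vehicle. Its DBZ change was 0.45 ± 0.28 (limma adjusted p = 0.353). The probe set 1435449_at was lower on every treated array (33 to 61.7) than on the vehicle arrays (84 and 62.5), with changes of -0.67 for DBZ, -0.76 for dexamethasone and -0.43 for the combination, none of which passed. The probe set 1456006_at gave -0.11, -0.24 and 0.01. According to the annotation, 1456006_at was designed from the same transcript record as 1456005_a_at. In Affymetrix names the ending _a_at marks a probe set that recognises alternative transcripts of 1 gene. The remaining probe set, 1426334_a_at, was too low to test, at 33.3 and 29.4 in vehicle, 11.1 and 4.64 under dexamethasone, 3.8 under DBZ, and 18.1 and 32.3 under the combination.

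A ratio between the signals of probe sets of 1 gene on 1 array, with no constant added, does not depend on how arrays were scaled. The log2 ratio of 1435448_at over 1456005_a_at was -0.28 and -0.66 in vehicle, -1.61 and -1.65 under dexamethasone, -2.42 under DBZ, and -1.44 and -1.94 under the combination. All 5 treated arrays thus lay below both vehicle arrays. The same held for 1435449_at (-1.44 and -2.01 in vehicle, -4.97 to -3.16 in the treated arrays) and for 1456006_at (-1.69 and -2.60 against -4.70 to -3.07). These ratios share 1456005_a_at, itself higher on every treated array, so they are not independent of each other. On the treated arrays 1435449_at read 33 to 61.7 and 1456006_at 38.8 to 65.6, near the filter threshold of 39.14. The Bcl2l11 probe sets therefore changed unequally between vehicle and treated arrays. Which transcripts these probe sets detect was not analysed here.

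**Figure D2:**
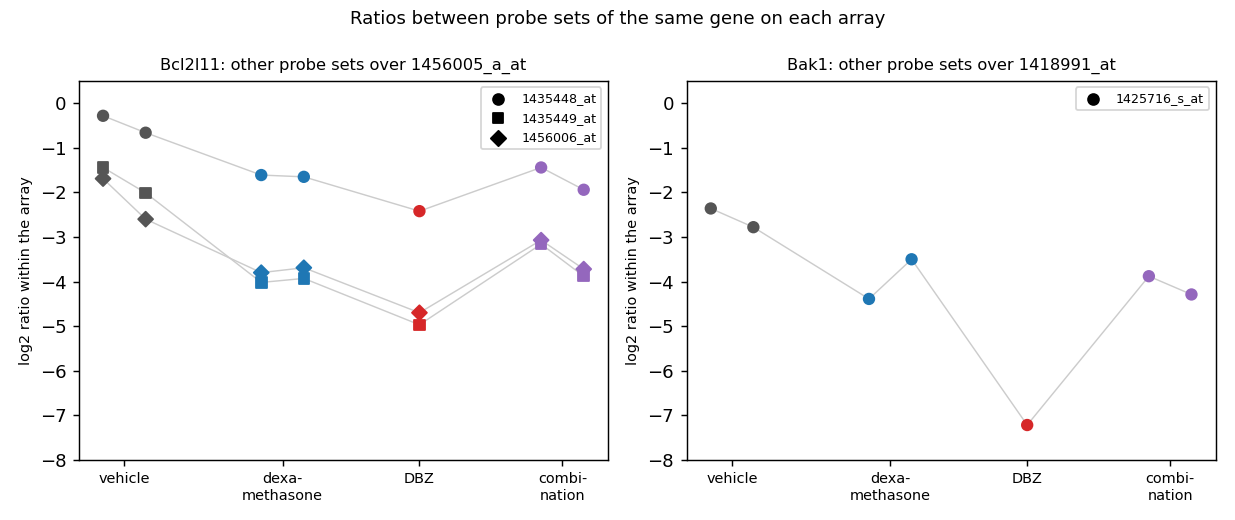
Log2 ratio of the other tested probe sets of Bcl2l11 over 1456005_a_at (left) and of the second Bak1 probe set over 1418991_at (right) on each of the 7 arrays, with grey lines joining 1 ratio. All ratios are highest on the vehicle arrays and lowest on the DBZ array, which has -2.42 for the Bcl2l11 probe set 1435448_at and -7.22 for Bak1. The Bak1 ratio is a description, since 1425716_s_at passed the filter on low signals only through the vehicle arrays.

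RefSeq promoter windows of GRCm38.p6, 250 bases before to 50 after each annotated start, were found for all 10 genes (16 windows). They were searched on both strands for AGAACA, the core of glucocorticoid receptor sites, TGGGAA, the core bound by the Notch effector RBPJ, and GTAAACA, the core bound by FOXO factors, none of which overlaps another in its letters. GTAAACA was found in 3.65% of all 32851 windows and in 2 windows of the listed genes, 1 of Bcl2l11 and 1 of Bbc3. AGAACA was found in 19% of all windows and in 0 of these 16. TGGGAA was found in 25.6% of all windows and in 3 of these 16, from Bax and Bad. A match describes letters and not a site in use, and its absence says only that those letters are not in this window. The 250 bases before the start follow for both starts of Bcl2l11, of whose 4 tested probe sets 1 rose with all 3 treatments, for Casp8, whose probe set rose with all 3, and for Bak1, whose brighter probe set fell with dexamethasone and the combination, with the GTAAACA match in capitals.

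Bcl2l11 first start (chr2:128125788-128126037, plus strand): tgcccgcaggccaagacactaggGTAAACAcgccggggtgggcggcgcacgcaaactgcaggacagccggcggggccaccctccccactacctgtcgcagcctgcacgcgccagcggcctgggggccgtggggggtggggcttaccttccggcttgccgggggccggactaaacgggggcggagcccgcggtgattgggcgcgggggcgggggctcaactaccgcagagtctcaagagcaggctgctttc

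Bcl2l11 second start (chr2:128127325-128127574, plus strand): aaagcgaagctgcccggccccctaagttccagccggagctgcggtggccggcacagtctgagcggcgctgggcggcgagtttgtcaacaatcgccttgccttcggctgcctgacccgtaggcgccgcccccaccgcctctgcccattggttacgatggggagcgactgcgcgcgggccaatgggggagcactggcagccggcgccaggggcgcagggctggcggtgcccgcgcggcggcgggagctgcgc

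Casp8 (chr1:58802252-58802501, plus strand): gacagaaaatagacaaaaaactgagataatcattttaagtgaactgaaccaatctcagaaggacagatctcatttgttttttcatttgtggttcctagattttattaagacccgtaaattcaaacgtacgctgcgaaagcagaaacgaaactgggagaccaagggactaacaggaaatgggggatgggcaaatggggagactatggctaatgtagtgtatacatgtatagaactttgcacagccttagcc

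Bak1 (chr17:27028628-27028877, minus strand): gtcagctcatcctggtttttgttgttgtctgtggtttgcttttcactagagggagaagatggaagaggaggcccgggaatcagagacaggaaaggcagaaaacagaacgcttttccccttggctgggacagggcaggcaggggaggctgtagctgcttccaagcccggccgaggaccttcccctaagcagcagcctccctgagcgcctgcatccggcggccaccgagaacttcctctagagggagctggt

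The Bcl2l11 match begins 227 bases before the first start. The 300-base Bcl2l11 windows are 71% and 74% G and C, that of Bak1 58.3% and that of Casp8 42%, beside a median of 52.7% over all windows.

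No other BH3-only gene passed in any comparison. Bid, which links Casp8 to mitochondria, had signals on 1417045_at of 137 and 95.8 in vehicle, 134 and 97.9 under dexamethasone, 117 under DBZ, and 113 and 143 under the combination. All groups overlapped, and the change with DBZ was 0.03, with a 95% interval of -0.68 to 0.74. Bad, a sensitizer that binds Bcl2 and Bcl2l1, had 338 and 302, 168 and 338, 365, and 251 and 331 in the same order on 1416582_a_at. On 1416583_at it had 287 and 292, 212 and 242, 239, and 303 and 343. The combination exceeded dexamethasone on the latter by 0.49 ± 0.18 (limma unadjusted p = 0.0233, adjusted p = 0.453). Bbc3, a p53 target, was between 18 and 43.9 on all arrays and was not tested, and the second probe set of Bid lay between 5.66 and 38.8.

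Bak1, the pore former measured here, fell with dexamethasone and with the combination on its brighter probe set. This probe set, 1418991_at, had signals of 862 and 756 in vehicle, 474 and 475 under dexamethasone, 647 under DBZ, and 458 and 411 under the combination. Every treated array lay below both vehicle arrays, with DBZ between vehicle and the other treated groups. It fell by 0.75 ± 0.17 with dexamethasone (1.68-fold, limma adjusted p = 0.0191) and by 0.88 ± 0.17 with the combination (1.84-fold, adjusted p = 0.0143). Its DBZ change of -0.31 ± 0.20 did not pass (adjusted p = 0.362). Both calls were lost without vehicle 1 (-0.66 and -0.78), the first also without dexamethasone 1 or 2 (-0.75 each) and the second without combination 1 (-0.95) or combination 2 (-0.80).

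The second Bak1 probe set, 1425716_s_at, had 168 and 110 in vehicle, 22.6 and 42 under dexamethasone, 4.35 under DBZ, and 31 and 21 under the combination. It passed the filter on low signals only through the vehicle arrays, since its mean over the treated arrays was 24.2, under the threshold of 39.14. A probe set kept in this way had to be lower in the treated groups, so its calls are described and support nothing. It fell by 3.14 ± 0.44 with DBZ (limma adjusted p = 0.00528), by 1.76 ± 0.36 with dexamethasone (adjusted p = 0.0134), and it fell by 1.96 ± 0.36 with the combination (adjusted p = 0.0129). The DBZ signal lay below the constant of 12.46 that was added to every value. Its interaction was 2.95 ± 0.57 (adjusted p = 0.0248), which did not pass without the filter on low signals (adjusted p = 0.0643), without dexamethasone 1 (2.64), without combination 1 (2.74) or without combination 2 (3.13). The dexamethasone call was lost without dexamethasone 1 (-1.45) and the combination call without combination 1 (-2.14) or combination 2 (-1.77). The ending _s_at marks probes shared by several transcripts or genes.

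Leaving this probe set aside, 4 of 18 probe sets passed with DBZ, 3 of 18 with dexamethasone and 3 of 18 with the combination in limma. The shares of all tested probe sets were 8.34%, 12.0% and 7.50%. For the interaction 1 of 18 passed, beside 4.01% of all. The log2 ratio of the second over the first Bak1 probe set was -2.36 and -2.78 in vehicle and -7.22 to -3.50 in the treated arrays. These ratios are given as values only, since the second probe set was kept for its vehicle signals and read 4.35 to 42 on the treated arrays.

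Casp8, the initiator caspase of the death receptor route, was measured by 1 probe set, 1424552_at. Its signals were 648 and 504 in vehicle, 1050 and 1060 under dexamethasone, 1020 under DBZ, and 1290 and 1230 under the combination. Every treated array lay above both vehicle arrays, and the combination arrays lay above all others. Relative to the scaled arrays, Casp8 rose by 0.82 ± 0.21 with DBZ (1.76-fold, limma adjusted p = 0.0446), while without rescaling the difference was -0.17, beside a median of -1 over all probe sets. It rose by 0.87 ± 0.17 with dexamethasone (1.83-fold, adjusted p = 0.012; -0.11 without rescaling, beside -0.92) and by 1.12 ± 0.17 with the combination (2.18-fold, adjusted p = 0.00641; 0.14 without rescaling, beside -0.98). Taken relative to those medians, the unscaled changes were 0.83, 0.81 and 1.12.

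The Casp8 levels were ordered combination (1260 ± 41, SD, n = 2), dexamethasone (1060 ± 8.87, n = 2), DBZ (1020) and vehicle (576 ± 102, n = 2). The combination was not told apart from either single drug by the test, with 0.25 ± 0.17 between combination and dexamethasone (95% interval -0.13 to 0.64) and 0.31 ± 0.21 between combination and DBZ (-0.17 to 0.78). The small gap between dexamethasone and DBZ was not tested. The interaction was -0.56 ± 0.27 (limma adjusted p = 0.28). The DBZ call was the least stable of the members' calls: it passed in 6 of 16 alternatives, and the value without vehicle 2 was 0.64 (adjusted p = 0.0999). Leaving out any dexamethasone or combination array also ended it, at 0.82. The dexamethasone call was lost without vehicle 2 (0.69), dexamethasone 1 (0.88) or dexamethasone 2 (0.86), and the combination call without combination 1 (1.09) or combination 2 (1.16). On each array, the log2 ratio of Casp8 over the Bak1 probe set 1418991_at was -0.41 and -0.59 in vehicle, 1.15 and 1.16 under dexamethasone, 0.65 under DBZ, and 1.5 and 1.58 under the combination. The vehicle and treated arrays did not overlap in this ratio, whose partner was lower on every treated array. Over the Mcl1 probe set 1437527_x_at, the Casp8 ratio was -1.45 and -1.86 in vehicle, -0.85 and -0.83 under dexamethasone, -1.80 under DBZ, and -1.17 and -1.01 under the combination, so the DBZ array lay inside the vehicle range. Neither ratio depends on the scaling.

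**Figure D3:**
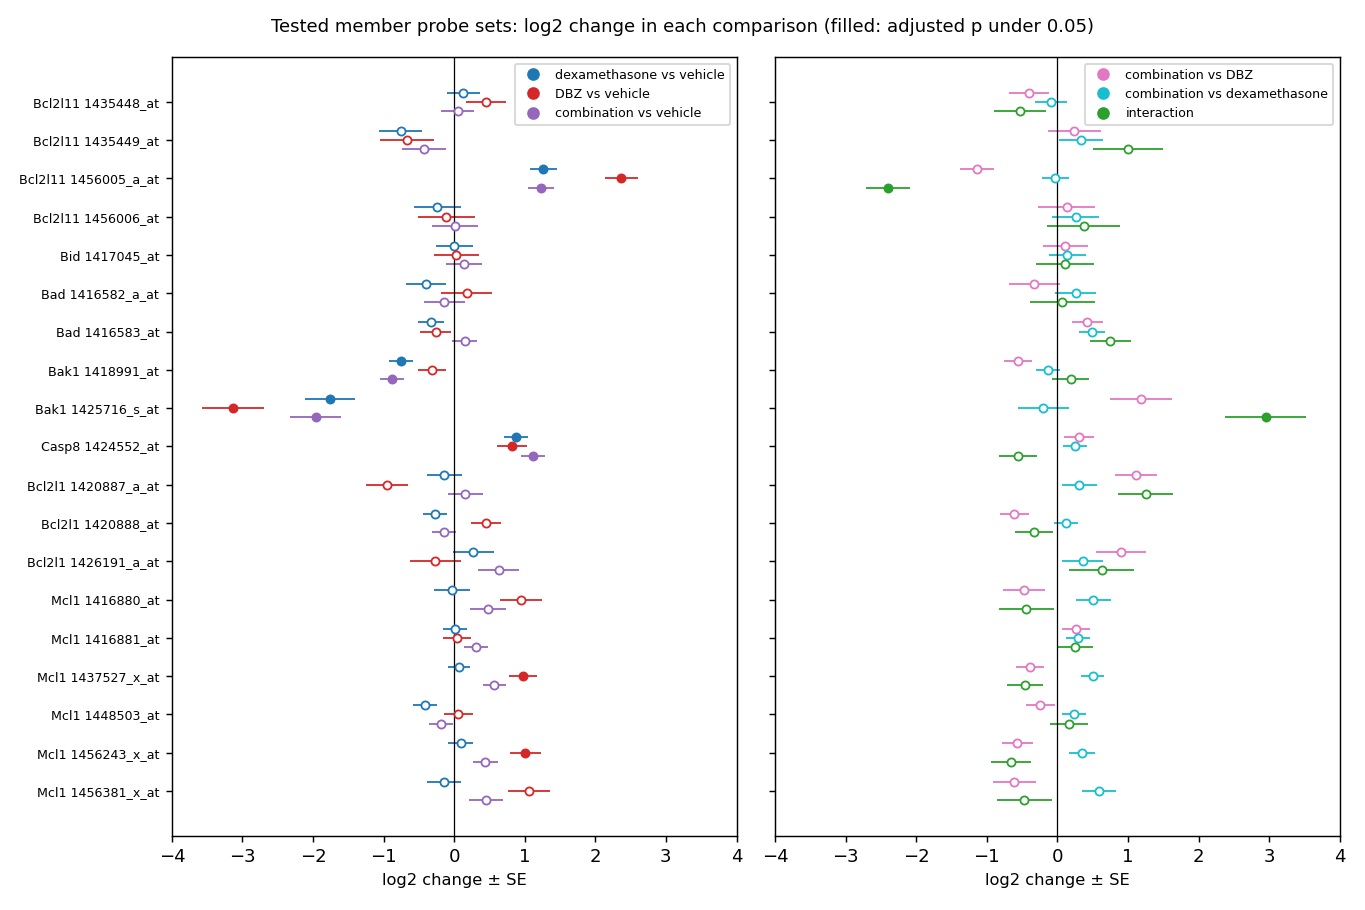
Log2 change ± SE of the 19 tested probe sets, on the left for each treatment against vehicle and on the right for the combination against each single drug and for the interaction. Filled points have an adjusted p under 0.05. Filled points belong to Bcl2l11, Bak1, Casp8 and Mcl1 on the left, and to Bcl2l11 and the Bak1 probe set 1425716_s_at for the interaction. That Bak1 probe set passed the filter on low signals only through the vehicle arrays, so its points support nothing. Without rescaling, which lowered the median of all probe sets to -1 with DBZ and -0.92 with dexamethasone, Casp8 was at -0.17 and -0.11 and the Mcl1 pair at -0.03 and 0.02 with DBZ; relative to those medians they were at 0.83, 0.81, 0.97 and 1.01.

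Among the guardians, Mcl1, a short-lived protein on which intestinal epithelium is known to depend for survival, was measured by 6 probe sets, and 2 of them rose with DBZ. The probe set 1437527_x_at had signals of 1780 and 1830 in vehicle, 1890 and 1890 under dexamethasone, 3530 under DBZ, and 2900 and 2480 under the combination. The DBZ array was the highest and the combination arrays came next, with no overlap between the groups. The probe set 1456243_x_at had 1560 and 1670, 1690 and 1740, 3270, and 2490 and 1930 in the same order. They rose by 0.97 ± 0.20 and 1.01 ± 0.22 with DBZ (1.95-fold and 2.02-fold, limma adjusted p = 0.0206 and 0.0231). Without rescaling, these differences were -0.03 and 0.02, beside a median of -1, and 0.97 and 1.01 relative to it. Neither passed without vehicle 1 (0.95 and 0.96).

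With DBZ, 2 further Mcl1 probe sets had changes of similar size that did not pass: 1456381_x_at at 1.06 ± 0.30 (limma adjusted p = 0.0567) and 1416880_at at 0.95 ± 0.30 (adjusted p = 0.0831). The remaining pair, 1416881_at and 1448503_at, gave 0.04 and 0.06. The DBZ array had the highest 3' to 5' signal ratios of Gapdh and Actb, whose part in this split was not tested. The signals of 1448503_at were 1960 and 2390 in vehicle, 1630 and 1610 under dexamethasone, 2260 under DBZ, and 2030 and 1790 under the combination, so the DBZ array lay inside the vehicle range. Over the 7 arrays 1456243_x_at, 1456381_x_at and 1416880_at followed 1437527_x_at with Pearson correlations of 0.97, 0.91 and 0.91, while 1416881_at and 1448503_at had 0.50 and 0.36. The ending _x_at marks probe sets that may bind other transcripts, and both that passed carry it. Against vehicle, 0 Mcl1 probe sets passed with dexamethasone or the combination in limma. For the combination, 1437527_x_at had 0.57 ± 0.16 (adjusted p = 0.0631).

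Bcl2l1, which encodes Bcl-xL and a short pro-apoptotic form through alternative splicing, had 3 tested probe sets and none passed in any comparison. With DBZ their changes differed in sign: 1420888_at gave 0.45 ± 0.21, 1420887_a_at gave -0.95 ± 0.30 and 1426191_a_at gave -0.27 ± 0.36. The signals of 1420888_at were 382 and 382 in vehicle, 332 and 297 under dexamethasone, 529 under DBZ, and 336 and 351 under the combination, with DBZ the highest. Those of 1420887_a_at were 194 and 118, 137 and 135, 72.8, and 172 and 170, with DBZ the lowest. The log2 ratio of 1420887_a_at over 1420888_at was -2.86 on the DBZ array and -1.69 to -0.96 on the other 6 arrays. That DBZ value comes from 1 array and has no replicate. The same array had the highest 3' to 5' signal ratios of Gapdh and Actb, whose part in this value was not tested.

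Bcl2 itself, the founding survival gene of the family, was near the bottom of the scale. Its probe set read 13.8 and 22.3 in vehicle, 35.2 and 45.3 under dexamethasone, 43.5 under DBZ, and 20 and 24.7 under the combination. The dexamethasone and DBZ arrays were above the vehicle and combination arrays, but its mean of 29.3 was under the threshold and no test was made.

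Between treated groups few differences were measurable. For the combination against DBZ, 0 of 19 probe sets passed in limma, against 0.330% of all tested, and 7 had an unadjusted p under 0.05, beside 1681 of all 13637. They were 1456005_a_at of Bcl2l11 (-1.14), both of Bak1 (-0.56 and 1.18), all 3 of Bcl2l1 (1.11, -0.61 and 0.90) and 1456243_x_at of Mcl1 (-0.57). Each of these compares the combination pair with the single DBZ array. The Bak1 value of 1.18, counted among the 7, is from 1425716_s_at, which passed the filter on low signals only through the vehicle arrays. It compares signals of 31 and 21 under the combination with 4.35 under DBZ, all under the threshold of that filter. This value is described only and supports nothing. For the combination against dexamethasone, 0 of 19 passed, against 0.0293% of all, and 3 had an unadjusted p under 0.05, beside 1265 of all. These were Mcl1 on 1437527_x_at (0.50) and 1456381_x_at (0.59) and Bad on 1416583_at. The median change of the 19 was -0.24 against DBZ and 0.26 against dexamethasone, beside 0.01 and -0.06 over all. Both counts stayed at 0 when the vehicle arrays were left out of the fit, an alternative chosen after seeing the data, in which 18 members were tested.

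Around these members, 49 other apoptosis genes were tested, each by its brightest probe set, in 5 lists. With DBZ 1 rose and 2 fell (6.12%, beside 7.81% of 8093 genes), with dexamethasone 2 rose and 3 fell (10.2%, beside 12.2%), and with the combination 1 rose and 1 fell (4.08%, beside 7.39%). These shares are near or below those of all genes, and the list medians were 0.09, 0.05 and -0.09, beside -0.02, 0.02 and -0.05. For the interaction 2 were above (4.08%, beside 3.84%). The combination differed from DBZ and from dexamethasone in 0 of 49 each in limma (beside 0.111% and 0.0371% of all genes).

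In the list of caspases, apoptosome components and inhibitors, 16 of 18 genes were tested. Casp6, an effector caspase, had signals of 2110 and 1840 in vehicle, 484 and 259 under dexamethasone, 398 under DBZ, and 926 and 695 under the combination. All treated arrays lay below vehicle, with the combination highest among them. It fell by 2.27 ± 0.33 with DBZ (limma adjusted p = 0.00596), fell by 2.43 ± 0.27 with dexamethasone (adjusted p = 0.000922) and fell by 1.28 ± 0.27 with the combination (adjusted p = 0.0216), and its interaction was 3.42 ± 0.43 (adjusted p = 0.00478). The combination's call was lost without any single vehicle or combination array (-1.49 to -1.08). Aifm1, the mitochondrial apoptosis-inducing factor, had 602 and 503, 310 and 303, 244, and 351 and 353 in the same order. It fell by 1.13 ± 0.21 with DBZ and by 0.82 ± 0.18 with dexamethasone (adjusted p = 0.0153 and 0.0161), the latter lost without vehicle 1 (-0.69), dexamethasone 1 (-0.84) or dexamethasone 2 (-0.80). Its interaction of 1.33 ± 0.28 (adjusted p = 0.0318) was lost without vehicle 1 (1.20) and without any dexamethasone or combination array (1.31 to 1.34). Cycs, the cytochrome c gene, also fell with dexamethasone (-0.62 ± 0.17, adjusted p = 0.0419), and is named here after its values were seen.

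Of the death receptor list 10 of 14 genes were tested, and only Ripk3, a kinase of necroptosis, passed. It had 95 and 101 in vehicle, 212 and 184 under dexamethasone, 102 under DBZ, and 105 and 120 under the combination, and rose with dexamethasone by 0.93 ± 0.21 (limma adjusted p = 0.0218; 0.02 without rescaling, beside a median of -0.92 over all probe sets). Leaving out any vehicle or dexamethasone array ended that call (0.83 to 1.03). Among regulators of Bcl2l11, 8 of 10 were tested and Dynll1, a dynein light chain that can hold Bim at microtubules, rose with dexamethasone (0.89 ± 0.19, adjusted p = 0.0144; -0.10 without rescaling, beside -0.92) and with the combination (0.71 ± 0.19, adjusted p = 0.0488; -0.28 without rescaling, beside -0.98). Both other tested probe sets of Dynll1 also rose, by 1 and 0.96 with dexamethasone, and by 0.83 and 0.78 with the combination (adjusted p = 0.0128, 0.00725, 0.037 and 0.0245). On the brightest probe set, the first was lost without vehicle 2 (0.70), dexamethasone 1 (0.91) or dexamethasone 2 (0.88). The second held in 4 of 16 alternatives and was 0.52 without vehicle 2, 0.84 without combination 1 and 0.57 without combination 2. The transcription factor genes Foxo1 and Foxo3 passed in no comparison and are named here outside the rule of naming only genes past the threshold. Foxo1 had 0.92 ± 0.29 with DBZ (limma adjusted p = 0.0805), 0.25 ± 0.24 with dexamethasone and 0.12 ± 0.24 with the combination. Foxo3 had 0.38 ± 0.25, -0.41 ± 0.20 and -0.60 ± 0.20 in the same order.

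In the p53 list 9 of 11 genes were tested. The cell cycle inhibitor Cdkn1a had 1610 and 1630 in vehicle, 2040 and 2650 under dexamethasone, 2900 under DBZ, and 2400 and 2470 under the combination on its brightest probe set. On the scaled arrays it rose by 0.84 ± 0.22 with DBZ (limma adjusted p = 0.0428; -0.16 without rescaling, beside a median of -1), and the call was lost without any single vehicle or combination array (0.83 to 0.85). Its other tested probe set rose by 2.62 ± 0.20 with DBZ, by 2.44 ± 0.17 with dexamethasone and by 2.26 ± 0.17 with the combination (adjusted p = 0.000346, 0.000116 and 0.000282). The interaction of that Cdkn1a probe set was -2.80 ± 0.26 (limma adjusted p = 0.00127). Its combination differed from DBZ by -0.36 ± 0.20 and from dexamethasone by -0.18 ± 0.17, and neither passed. Such an interaction cannot be told apart from a difference between the vehicle arrays and all treated arrays alike. Of the other Bcl2 family members, 6 of 15 were tested and none passed in the 6 comparisons. Their DBZ changes ran from -0.93 ± 0.28 (Bcl2l14) to 0.63 ± 0.34 (Bnip3), with Pmaip1 (Noxa), a p53-induced BH3-only gene, at 0.28 ± 0.42.

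**Figure D4:**
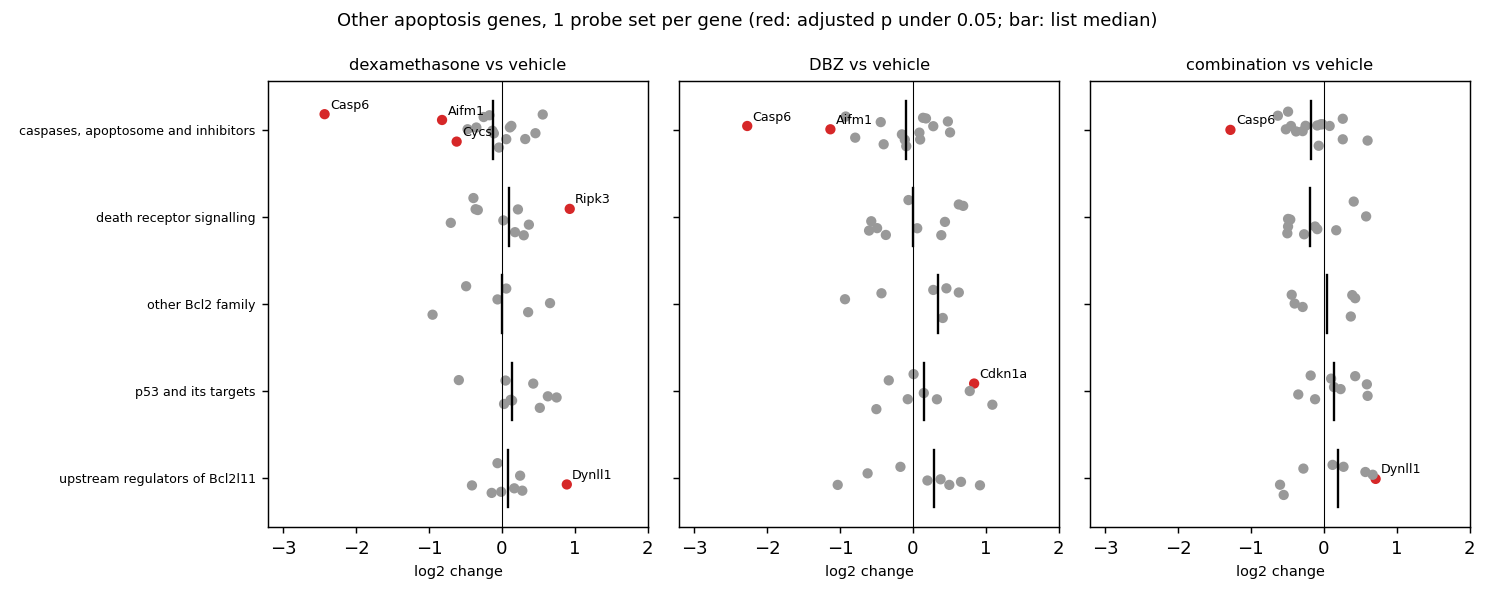
Log2 change of each of the 49 other apoptosis genes (1 point per gene, placed at random within its list's row) for each treatment against vehicle, with list medians as bars and genes past the threshold in red. Red points number 5 with dexamethasone, 3 with DBZ and 2 with the combination. Without rescaling, the Cdkn1a change with DBZ is -0.16, beside a median of -1 over all probe sets, and the Dynll1 changes are -0.10 with dexamethasone, beside -0.92, and -0.28 with the combination, beside -0.98.

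Genes outside the family were compared by Pearson correlation over the 7 arrays with the 3 members of smallest p. Closest to Bcl2l11 1456005_a_at were Ctdsp2 (0.992), Ldhb (0.988) and Sppl3 (0.987). Closest to Bak1 1425716_s_at were Nup153 (0.987), Mettl3 (0.985) and Ndufs8 (0.985). This Bak1 probe set passed the filter on low signals only through the vehicle arrays, so these correlations are described and support nothing. The brighter Bak1 probe set was not compared in this way. Closest to Casp8 were Stom (0.995), Kansl1 (0.994) and Kif1b (0.992). With 7 arrays in 4 groups that share their scaling, such values describe a shared order of the arrays.

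Several marker sums of other cells also separated vehicle from treated arrays. The summed signal of the T-cell and intraepithelial lymphocyte markers (9 of 11 measured) was 1400 and 1710 in vehicle and 468 to 574 in the treated arrays, with Gzma at 926 and 1170 against 287 to 376 and the defining gene Cd3e at 44.6 and 56.7 against 5.93 to 44.6. The smooth muscle sum (10 of 10) was 9900 to 13200 in vehicle and 18100 to 27300 in the treated arrays, and the fibroblast sum (8 of 8) 3290 to 5180 against 7960 to 9500. The ileal enterocyte sum (4 of 5) was 1200 to 1370 against 2430 to 14700, and the goblet cell sum (9 of 9) 28800 to 32500 against 34400 to 53300. The adipocyte sum (4 of 6) was 842 to 998 against 1100 to 1540, and the proximal enterocyte sum (6 of 6) 17000 to 18600 against 7880 to 16500. Single genes in these sums could overlap. Adipoq had 243 and 44.3 against 130 to 691, Slc51a 1360 and 1180 against 1150 to 2500, and Fabp1 13900 and 14900 against 7330 to 15700. Among the goblet genes, Tff3 had 7990 and 7230 against 7120 to 11200, and Zg16 11100 and 10400 against 8840 to 14900. Fcgbp, Agr2, Spdef and Retnlb also overlapped. Clca1, Ern2 and Guca2a did not, with Guca2a at 1550 and 1330 against 5060 to 7270. In the ileal sum, Fgf15 also overlapped (6.55 and 10.1 against 10 to 52.4). Fabp6 (0.644 and 1.22 against 1120 to 12000) and Slc10a2 (1.71 and 7.14 against 17.5 to 165) did not. Cidec, Lipe and Slc46a1, among others, did not overlap either. The other sums overlapped between vehicle and treated arrays. The B and plasma cell sum (7 of 9) was 4030 to 4480 against 2780 to 4730, the Paneth cell sum (4 of 7) 10500 to 13400 against 6460 to 16800, and the pancreatic acinar sum (5 of 7) 247 to 551 against 190 to 334. For dividing crypt cells (9 of 10) the sum was 3300 to 4130 in vehicle, 1870 under DBZ, 3130 to 3750 under dexamethasone and 2200 to 3300 under the combination. No measured marker was at 0 on any array. The part of these cell types in the Bcl2l11, Casp8, Mcl1 and Bak1 differences was not tested.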

How the data were processed

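The authors' deposited values are intensities, 1 linear signal per probe set and array, made with MAS5 per the submitters' processing notes; its version and scaling target are not given in the sources used here. There were 22690 probe sets and 8 sample columns, 0 of them unused. Identical DBZ columns were used as 1 array, so the planned design with 2 DBZ arrays could not be kept. Control probe sets (64) were dropped, arrays were scaled to a 2% trimmed mean of 250, and log2 of signal plus 12.46 (20th percentile) was taken. Probe sets with a mean under 39.14 (40th percentile) were left out, leaving 13637. Group means were fitted with limma 3.58.1 in R 4.3.3 with an intensity trend, with 2-sided p-values and Benjamini-Hochberg adjustment over all tested probe sets (3 residual and 6.85 prior degrees of freedom). The pipeline was tested on simulated data. "Rose" and "fell" mean an adjusted p under 0.05. A log2 change is given ± SE and a signal ± SD.

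The members and lists were chosen with earlier results of these data known. All member probe sets are described; from the 5 wider lists, genes past the threshold are named by smallest p, up to 4 per comparison. Alternatives were quantile normalisation, no rescaling, other filters and pseudocounts, array weights, no intensity trend, a replicate block, DBZ columns as separate arrays and each array left out. The table holds no detection calls, and the number of arrays limits the precision. Promoters came from RefSeq. Figures were drawn with matplotlib 3.10.9 in Python 3.11.15.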

Additional observations from a re-analysis of the deposited data

Results flagged for a closer look

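For 2 probe sets the test of the DBZ difference with against without dexamethasone passed the threshold. The interaction of Bcl2l11 1456005_a_at was -2.40 ± 0.31 (limma adjusted p = 0.00501): DBZ gave 2.37 without dexamethasone and -0.03 with it. The interaction of Bak1 1425716_s_at was 2.95 ± 0.57 (limma adjusted p = 0.0248), from -3.14 without dexamethasone to -0.20 with it, at signals of 4.35 to 42 on the treated arrays. This Bak1 probe set passed the filter on low signals only through the vehicle arrays, and its interaction did not pass without that filter (adjusted p = 0.0643) or without dexamethasone 1, combination 1 or combination 2 and was not tested without vehicle 1, so it is given as a value and supports nothing. Both rest on the single DBZ array and on the vehicle arrays. Groups of 1 or 2 arrays are too small to look for a sample far from the others.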

How the results depend on the processing

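Of the members' calls, those of Bcl2l11 1456005_a_at with DBZ and for the interaction passed in 16 of 16 alternatives (adjusted p up to 0.0116 and 0.0412), and that with dexamethasone in 15 of 16. Leaving out each array in turn gave 2 to 6 called member probe sets for DBZ, 1 to 4 for dexamethasone, 0 to 4 for the combination (each against vehicle) and 1 to 2 for the interaction, and 0 for the combination against DBZ and against dexamethasone. The counts include Bak1 1425716_s_at wherever it was tested. Where 1 array of a group remained, its spread was taken from the other groups, and the single DBZ array cannot be left out. Calls against vehicle over all tested probe sets were also fewer in each run that left out 1 array.

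As deposited, with no rescaling, the counts were 11 (DBZ), 16 (dexamethasone), 14 (combination) and 9 (interaction), nearly all in the direction of the scale difference: for DBZ 1 rose and 10 fell, against 4 and 1 on scaled arrays, for dexamethasone 0 and 16, for the combination 0 and 14, and for the interaction 8 were above and 1 below. Of all 13856 probe sets tested without rescaling, 9516 passed with DBZ, 10403 with dexamethasone, 11051 with the combination and 6567 for the interaction. With DBZ, 126 of all rose and 9390 fell, against 512 and 625 on scaled arrays. Beside medians over all probe sets of -1 (DBZ), -0.92 (dexamethasone) and -0.98 (combination), these changed sign: Casp8 with DBZ (-0.17) and dexamethasone (-0.11), Mcl1 1437527_x_at with DBZ (-0.03), Cdkn1a with DBZ (-0.16) and Dynll1 with dexamethasone (-0.10) and the combination (-0.28). Quantile normalisation gave 5, 4, 4, 0, 0 and 2, as in the main setting. With the DBZ columns as separate arrays, which counts 1 array as a pair, 9 passed with DBZ, 5 for the combination against DBZ and 4 for the interaction. Of all 13624 then tested, 4077, 1075 and 2109 passed in the same order. Without an intensity trend 2 passed with DBZ, beside 684 of all 13637. For the interaction 1 passed with no filter on low values, beside 235 of all 22626, and 1 with the filter at the 60th percentile, beside 589 of 9172. The cause was not tested.

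No shared deviation of same-numbered arrays was seen (correlations of 0.049, -0.122 and 0.115), and the numbers were not used as pairs in the main fit. With 2 arrays per group and DBZ not included, these values cannot show that the samples were unpaired. A replicate block gave 4, 4, 4, 0, 0 and 2 calls, and Casp8 with DBZ then had 0.82 (adjusted p = 0.0583). The linear scale without detection calls limits what signals near the filter can show.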
